A study of Mus musculus with 12 samples.

Results

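The 6 long noncoding RNA (lncRNA) genes, *Malat1*, *Neat1*, *Miat*, *Snhg11*, *Gas5*, and *Pvt1*, were followed through the brainstem libraries of morphine-exposed and saline-exposed mouse pups. They were picked by gene symbol and make up 6 of the 55418 genes in the count table; all 6 passed the filter on low counts in each comparison. The samples were 12 outbred CFW mice at P15, with 1 library each, and every combination of treatment (morphine or saline) and sex held 3 mice. All pups had received repeated daily injections, from the first postnatal day into the second postnatal week, and the agent was morphine in one group and saline in the other. The RNA was collected during spontaneous withdrawal from the last injection. Outbred mice differ from each other genetically, and no label gives the dam, so litter could not be entered in a fit and litter effects cannot be told apart from those between mice. Total counts ran from 27850565 to 48097947 per library.

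These RNAs act as transcripts rather than as templates for protein. *Malat1* collects at nuclear speckles, the stores of splicing factors, and *Neat1* is the RNA scaffold of paraspeckles, nuclear bodies that hold RNA-binding proteins such as *Sfpq* and *Nono*. *Miat*, also called Gomafu, sits in the nuclei of neurons and binds splicing factors. *Gas5* and *Snhg11* host small nucleolar RNAs (snoRNAs) in their introns, and the spliced *Gas5* RNA is exported and removed by nonsense-mediated decay (NMD). *Pvt1* lies beside the *Myc* oncogene. RNA from whole tissue does not show where in the cell a transcript was, so the nuclear location is background here and was not measured.

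Gene coordinates follow GENCODE M21 (GRCm38). *Malat1* (ENSMUSG00000092341) is 1 exon of 6983 bases on the minus strand of chromosome 19, from 5795690 to 5802672. *Neat1* (ENSMUSG00000092274) lies 22036 bases from it on the same strand, from 5824708 to 5845478, and its exon covers 20771 bases. *Miat* (ENSMUSG00000097767) is on the minus strand of chromosome 5, from 112213228 to 112229395, with 9293 exonic bases. *Snhg11* (ENSMUSG00000044349; chromosome 2, 158375638 to 158386145, plus strand) has 8521 exonic bases and is typed protein coding in this annotation, although it is named as a host gene. *Gas5* (ENSMUSG00000053332; chromosome 1, 161034422 to 161038539, plus strand) has 25 annotated transcripts and 10 snoRNA genes inside it. *Pvt1* (ENSMUSG00000097039; chromosome 15, 62037986 to 62378096, plus strand) is the widest of the 6 genes, and its exons sum to 6996 bases. The strand setting of the counting is not given in the sources used here. This matters most for *Miat*, which shares 2260 exonic bases with the antisense gene *Gm26953*; that gene holds 118 counts over the 12 libraries. The 10 snoRNA genes inside *Gas5* hold 0 counts.

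The 3′ ends of *Malat1* and *Neat1* are shown because the libraries were made from poly-A RNA. *Malat1* and the long *Neat1* transcript are cut by RNase P and end in a triple helix formed by their own U-rich and A-rich stretches, without a poly-A tail. The short *Neat1* transcript is polyadenylated in the usual way. In the sequences of GENCODE M21, capitals in the first and second lines mark the stretches of 16 and 11 bases that *Malat1* and the long *Neat1* transcript share, and capitals in the third line mark the polyadenylation signal AATAAA.
Malat1-201 bases 6614 to 6745, chr19:5795928-5796059, minus strand: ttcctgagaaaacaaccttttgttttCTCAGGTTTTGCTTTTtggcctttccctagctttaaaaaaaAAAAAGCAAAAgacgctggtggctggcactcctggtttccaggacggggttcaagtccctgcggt
Neat1-201 bases 20652 to 20771, chr19:5824708-5824827, minus strand: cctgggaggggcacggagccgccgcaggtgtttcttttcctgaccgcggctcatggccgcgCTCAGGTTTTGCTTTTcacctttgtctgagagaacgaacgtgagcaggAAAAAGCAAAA
Neat1-202 bases 2945 to 3004, minus strand: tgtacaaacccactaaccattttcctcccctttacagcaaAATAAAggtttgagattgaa
The *Malat1* stretch holds a run of 12 A, and 4.069% of the 141767 annotated transcripts hold a run of that length or longer. AATAAA stood in the last 60 bases of 27.110% of them, read on the transcript strand. Per kb of exon, *Malat1* was between 98.1 and 240 CPM (read counts scaled to library size), and *Rn7sk*, a nuclear RNA of 331 bases made without a poly-A tail, was between 2.07 and 8.25 CPM. Reads of the long and the short *Neat1* transcript are summed in 1 gene count.

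*Miat* carries repeats of ACTAAC, the core of the branch point sequence that the splicing factor *Sf1* binds. Its longest transcript, Miat-205, holds 11 copies, or 1.200 per kb, and 0.365% of the 68537 annotated transcripts of at least 1 kb are as dense. The stretch with the most copies is shown, with its 4 copies in capitals.
Miat-205 bases 4833 to 5072, minus strand, spliced transcript: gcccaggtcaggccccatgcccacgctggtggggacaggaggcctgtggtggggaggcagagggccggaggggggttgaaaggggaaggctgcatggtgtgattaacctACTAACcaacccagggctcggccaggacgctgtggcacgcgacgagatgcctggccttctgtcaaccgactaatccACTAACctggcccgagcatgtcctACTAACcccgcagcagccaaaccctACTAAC
The longest transcripts of the other RNAs held between 0 and 4 copies.

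Levels are CPM after TMM normalization (a scaling that sets the bulk of genes equal between libraries). Over the 12 mice, *Snhg11* averaged 1516 CPM and ranked 31 of the 18608 genes tested, and *Malat1* averaged 1069 CPM and ranked 59. *Miat* (199 CPM) ranked 911, *Gas5* (66.5 CPM) ranked 3509, *Neat1* (58.8 CPM) ranked 3924, and *Pvt1* (10.1 CPM) ranked 9952. *Snhg11* and *Malat1* were therefore abundant by this measure and *Pvt1* lay below the middle of the tested genes. Together the 6 genes took between 0.191% and 0.382% of the counts of a library.

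Levels of different genes need scaling to length before they are compared. On the scale of CPM per kb of exon the order was *Snhg11* (178), *Malat1* (153), *Miat* (21.4), *Gas5* (17.7), *Neat1* (2.83), and *Pvt1* (1.44). How fully poly-A libraries captured *Malat1* and the long *Neat1* transcript, which lack a poly-A tail, was not measured. Length scaling does not correct for this, so the order is that of the reads and may differ from that in the tissue. The steps from *Malat1* to *Miat* and from *Gas5* to *Neat1* were larger than the spread between mice, since *Malat1* was at least 4.43 times *Miat* and *Gas5* at least 3.85 times *Neat1* in each of the 12 mice. *Snhg11* was above *Malat1* in 9 of 12 mice, with ratios from 0.852 to 1.53, and *Miat* was above *Gas5* in 9 of 12, from 0.753 to 1.88. *Neat1* was above *Pvt1* in 11 of 12. The place of *Neat1* depends on the transcript assumed, because its counts divided by the 3004 bases of the short transcript alone would give 19.6 CPM per kb.

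**Figure D1:**
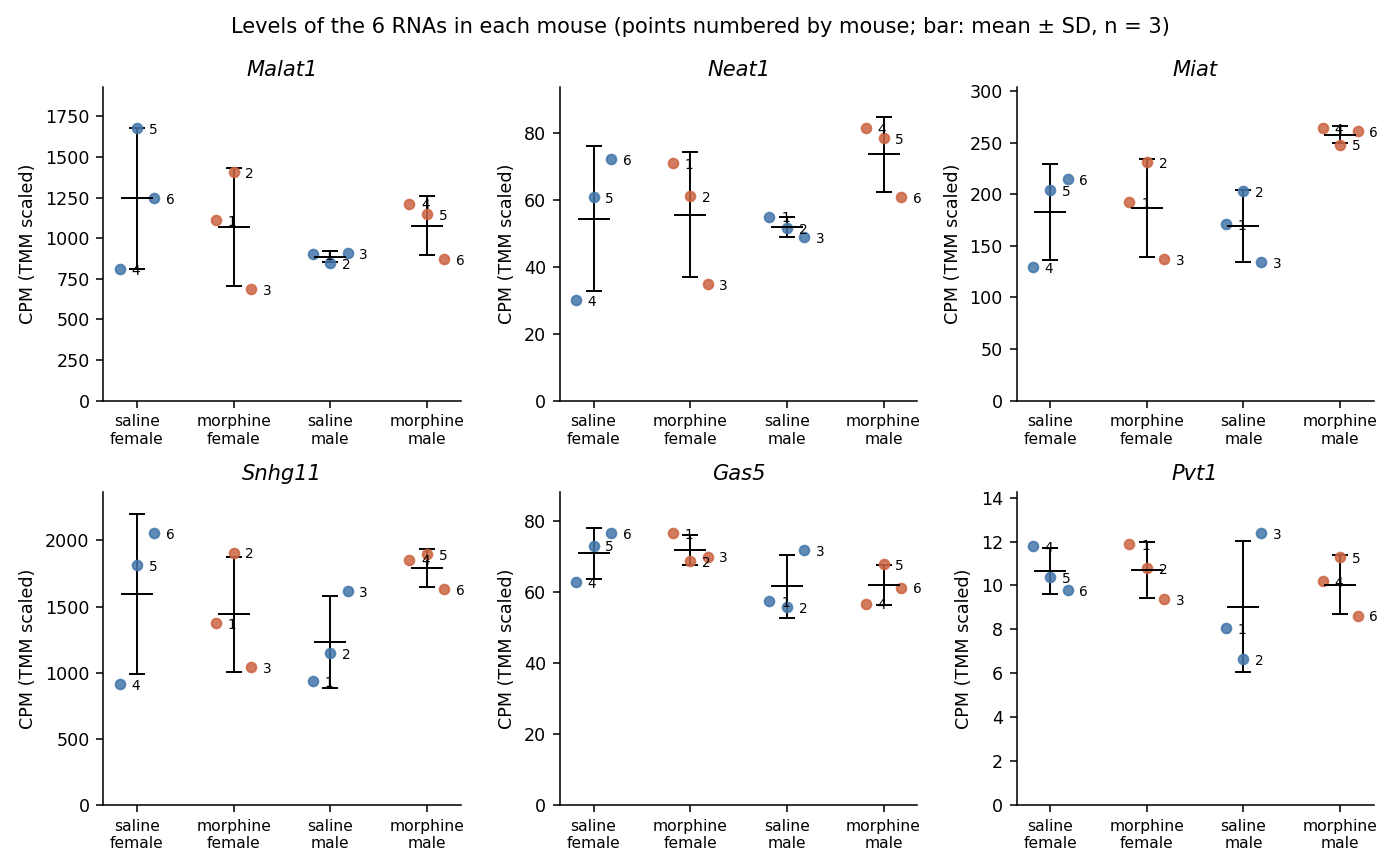
CPM (vertical axes, starting at 0) of the 6 RNAs in each of the 12 mice, grouped by treatment and sex; points are mice, labelled with their replicate number, and bars are the mean ± SD of 3 mice. The morphine males lie above the saline males without overlap for *Neat1*, *Miat*, and *Snhg11*, and the female groups overlap in all 6 panels.

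The spread between mice differed among the RNAs. *Malat1*, *Neat1*, *Miat*, and *Snhg11* had coefficients of variation of 26.8%, 27.1%, 24.3%, and 27.4% over the 12 mice, where the median of the genes within 2-fold of their level was between 12.4% and 13.1%. *Gas5* (11.4%) and *Pvt1* (16.9%) varied less than the median of their own level, which was 13.1% for *Gas5* and 17.8% for *Pvt1*. Saline female 4 was the lowest of the 12 mice for *Neat1* (30.1 CPM), *Miat* (129 CPM), and *Snhg11* (913 CPM). Morphine female 3 was the lowest for *Malat1* (685 CPM) and the second lowest for *Neat1* (34.7 CPM). In log2 CPM over the 12 mice, *Neat1* and *Miat* had the highest Pearson correlation among the 6 RNAs (r = 0.846), followed by *Neat1* and *Snhg11* (0.764), *Malat1* and *Snhg11* (0.757), *Miat* and *Snhg11* (0.687), and *Malat1* and *Neat1* (0.682). *Gas5* correlated most with *Pvt1* (0.630), and the correlations of this pair with *Miat* were -0.177 and -0.221. These values are descriptions, since all of them come from the same 12 libraries and share their depth and composition.

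Some libraries stood apart. The 5 genes *Hoxa5*, *Hoxb5*, *Slc6a5*, *Tph2*, and *Dbh*, which mark the brainstem, summed to between 568 and 763 CPM, whereas 4 Hox genes of the lumbar cord summed to at most 0.493 CPM; the extraction label names spinal cords and the tissue label brainstem. The library labelled morphine male 6 had 380 CPM of *Xist*, against 0.399 to 2.65 CPM in the other males and 550 to 979 CPM in the females, and it had 12.8 CPM of the Y-linked *Ddx3y*, against 115 to 199 CPM in the other males. Saline males 1 and 2 had the highest share of counts in ribosomal protein genes, 0.966% and 0.920%, and saline male 3 the lowest, 0.559%. Leaving out saline male 3 raised the number of DE genes in males from 543 to 5341, and 2141 of the 18652 genes tested in that fit had an adjusted *p* under 0.05. The male results of the 6 RNAs, and of the list genes named for males, are therefore given with and without saline male 3 and morphine male 6.

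**Figure D2:**
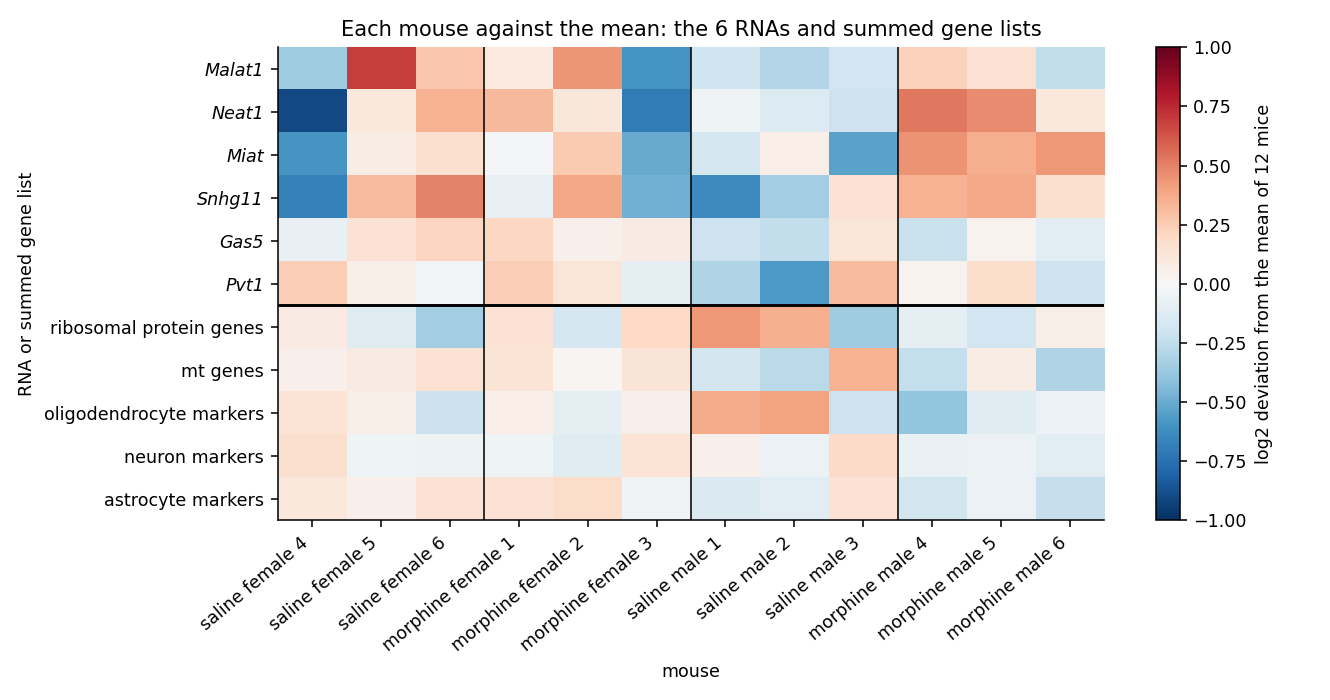
Log2 deviation of each mouse (columns) from the mean of the 12 mice, for the 6 RNAs (above the line) and for the summed ribosomal protein genes, mitochondrial genes, and markers of oligodendrocytes, neurons, and astrocytes (below it). Saline female 4 and morphine female 3 are low for *Malat1*, *Neat1*, *Miat*, and *Snhg11*, and saline males 1 and 2 are high for ribosomal protein genes and oligodendrocyte markers.

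With both sexes combined, none of the 6 RNAs passed the thresholds for DE genes. These were an unadjusted *p* below 0.05 together with a log2 fold change beyond 0.26 in either direction, in the quasi-likelihood test of edgeR with sex as a covariate. Of 18608 genes, 221 (1.19%) passed. The largest estimate was that of *Miat*, which had a lowest, median, and highest level of 137, 240, and 264 CPM in the 6 morphine mice and 129, 187, and 215 CPM in the 6 saline mice. The groups overlapped, and the log2 fold change was 0.32 (SE 0.17, 95% CI -0.05 to 0.69). *Neat1* had 34.7, 66.0, and 81.3 CPM in morphine mice and 30.1, 53.2, and 72.0 CPM in saline mice, with a log2 fold change of 0.27 (SE 0.21, 95% CI -0.19 to 0.73). The log2 fold changes of *Snhg11* (0.20, SE 0.22), *Pvt1* (0.08, SE 0.15), *Malat1* (0.03, SE 0.20), and *Gas5* (0.01, SE 0.09) were smaller than their SE. All 6 estimates were above 0, where 42.6% of all tested genes were. The median of the 6 was 0.14, and that of all genes -0.02. The adjusted *p* of each RNA was 0.9999. *Miat* alone passed both thresholds in 4 other fits, those without saline female 6 (log2 fold change 0.39), without morphine female 3 (0.41), with the replicate number as a block (0.33), and without a filter on low counts (0.31). For *Miat*, saline female 6 was the highest saline mouse and morphine female 3 the lowest morphine mouse. Leaving out either was thus set to raise the estimate, and those fits are no further test. No label says that the replicate numbers mark pairs.

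In females, 0 of the 6 RNAs passed, where 328 of 18109 genes (1.81%) did. *Malat1* was at 1109, 1409, and 685 CPM in the morphine females and at 811, 1677, and 1246 CPM in the saline females. The range of the saline females was wide enough to hold all but the lowest morphine female, and the log2 fold change was -0.23 (SE 0.28, 95% CI -0.85 to 0.40). *Snhg11* was at 1375, 1908, and 1043 CPM against 913, 1815, and 2058 CPM, a log2 fold change of -0.16 (SE 0.29, 95% CI -0.80 to 0.49). *Neat1* (0.02, SE 0.32), *Miat* (0.02, SE 0.22), *Gas5* (0.01, SE 0.10), and *Pvt1* (-0.001, SE 0.14) had log2 fold changes near 0. The groups overlapped for all 6 RNAs, where 5.67% of the tested genes had groups that did not. The intervals limit the change of *Gas5* to between -0.22 and 0.24 on the log2 scale, but that of *Neat1* only to between -0.69 and 0.73. The adjusted *p* of each RNA was 0.9998.

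In males, *Neat1*, *Miat*, and *Snhg11* were higher in morphine mice and passed both thresholds. The same thresholds were passed by 543 of 18166 genes (2.99%), 349 of them higher in morphine males (1.92%). *Miat*, the lncRNA with the ACTAAC repeats shown above, was at 264, 248, and 261 CPM in the morphine males and at 171, 203, and 134 CPM in the saline males. Every morphine male lay above every saline male, and the log2 fold change was 0.58 (SE 0.17, 95% CI 0.19 to 0.98). *Neat1*, the scaffold of paraspeckles, was at 81.3, 78.4, and 60.7 CPM against 54.9, 51.5, and 48.9 CPM. Its groups did not overlap either, and the lowest morphine male was the library labelled morphine male 6. The log2 fold change of *Neat1* was 0.48 (SE 0.15, 95% CI 0.12 to 0.83). *Snhg11*, the snoRNA host, was at 1855, 1894, and 1630 CPM against 938, 1147, and 1617 CPM. The lowest morphine male and saline male 3 nearly met, and the log2 fold change was 0.51 (SE 0.21, 95% CI 0.003 to 1.02). Over all tested genes, 8.86% had male groups that did not overlap, and 5.60% did so with the morphine males higher.

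*Malat1* was at 1213, 1148, and 871 CPM in the morphine males and at 902, 845, and 909 CPM in the saline males. Morphine male 6 lay within the saline range, and the log2 fold change of 0.25 (SE 0.15, 95% CI -0.10 to 0.61) did not pass. *Gas5* was at 56.7, 67.8, and 61.2 CPM against 57.3, 55.7, and 71.8 CPM, so the groups overlapped and the log2 fold change was -0.02 (SE 0.16). *Pvt1* was at 10.2, 11.3, and 8.63 CPM against 8.06, 6.66, and 12.4 CPM, with saline male 3 the highest of the 6 mice and a log2 fold change of 0.12 (SE 0.27). The median of the 6 log2 fold changes was 0.36, and that of all genes -0.06. None of the 6 RNAs had an adjusted *p* below 0.9999, and 0 of the 18166 genes had an adjusted *p* under 0.05.

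**Figure D3:**
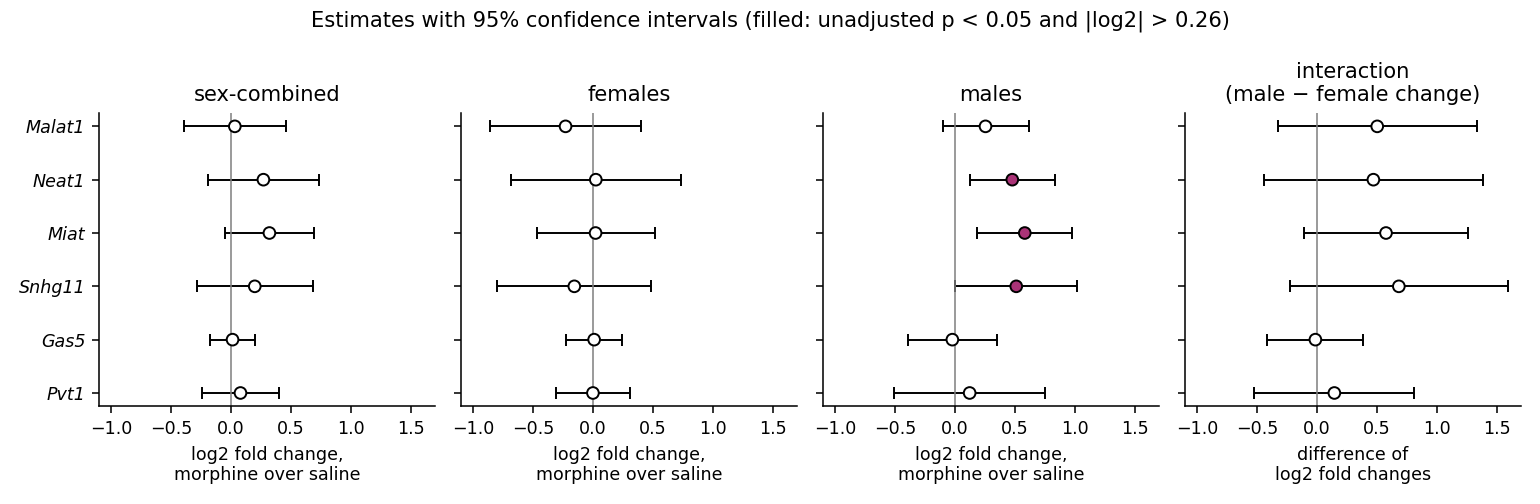
Log2 fold changes of morphine over saline (horizontal axes) with 95% confidence intervals for the 6 RNAs in the sex-combined, female, and male comparisons and, at the right, the male minus the female change. Filled points passed both thresholds; in males the intervals of *Neat1*, *Miat*, and *Snhg11* lie above 0, and in each other panel all intervals include 0.

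Each male was left out in turn. *Miat* passed whichever of the 6 males was left out, with log2 fold changes from 0.47 to 0.73. *Neat1* passed in 5 of 6, and did not without morphine male 4 (log2 fold change 0.40). *Snhg11* passed in 1 of 6, without saline male 3, where its log2 fold change was 0.79 (SE 0.11). In the other 5 fits its log2 fold change ran from 0.34 (without saline male 1) to 0.56, against 0.51 with all males. Saline male 3 was the highest saline male for *Snhg11*. Leaving it out was thus set to raise the estimate, and the fit is no further test of *Snhg11*. Without saline male 3, 28.6% of the tested genes passed, and so did 5 of the 6 RNAs; the adjusted *p* from edgeR was 0.0108 for *Snhg11*, 0.0293 for *Miat*, 0.05002 for *Neat1*, 0.108 for *Pvt1*, 0.149 for *Malat1*, and 0.432 for *Gas5*. The saline group of that fit was saline males 1 and 2 alone. Without morphine male 6, 2.47% of the tested genes passed. *Neat1* (0.59), *Miat* (0.56), and *Malat1* (0.38) passed in that fit, and *Snhg11* (0.56, SE 0.26) did not. This mouse was the lowest morphine male for *Neat1*, *Malat1*, and *Snhg11*, so its removal was set to raise those estimates. When the male contrast was taken from a fit of all 12 mice, 4.15% of the tested genes passed. Of the 6 RNAs *Miat* alone passed (0.61, SE 0.22), and *Neat1* (0.50, SE 0.30) and *Snhg11* (0.54, SE 0.30) did not.

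**Figure D4:**
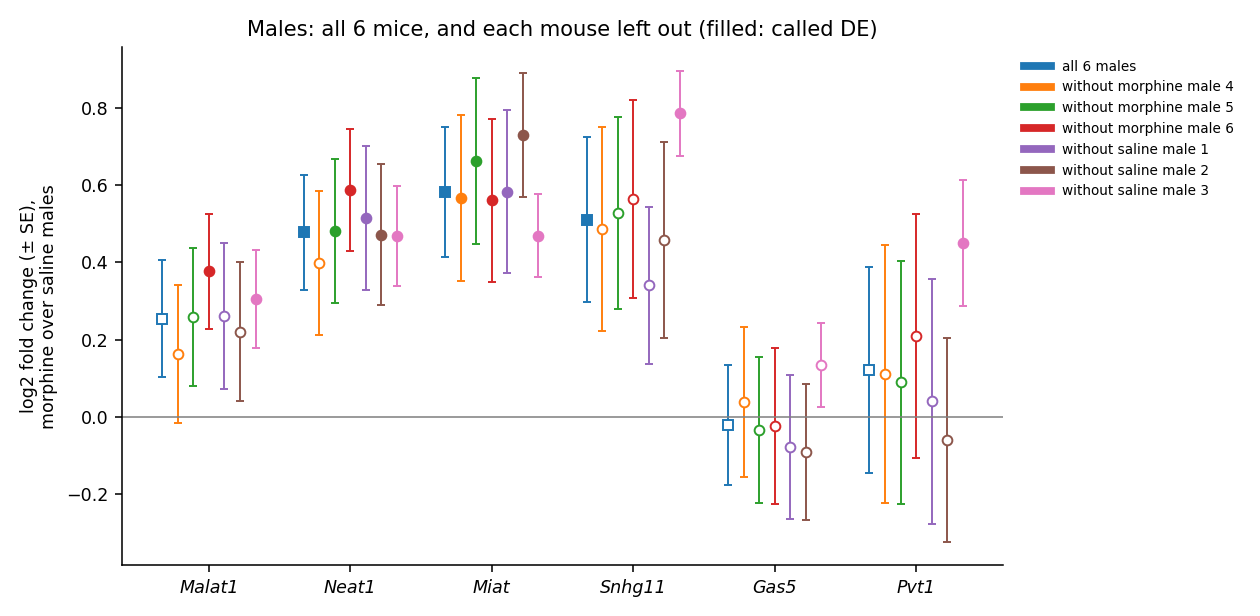
Log2 fold change of morphine over saline males (vertical axis, ± SE) of the 6 RNAs with all 6 males (squares) and with each male left out in turn (circles, coloured by the mouse left out). Filled symbols passed both thresholds; *Miat* is filled in every fit, and *Snhg11* moves up to 0.79 without saline male 3.

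Other measures also differed among the male libraries. Over all genes tested in males, 2.99% passed both thresholds and 37.6% had a log2 fold change above 0. Of the summed measures given here, only the cerebellar granule cell markers separated saline from morphine males without overlap. Saline male 3 lay below the morphine males for ribosomal protein genes and within their range for oligodendrocyte markers. Of 78 ribosomal protein genes, 1 had a log2 fold change above 0 in males, 8 passed both thresholds, and the median was -0.38; their share of counts was 0.966%, 0.920%, and 0.559% in the saline males and between 0.627% and 0.744% in the morphine males. The 6 oligodendrocyte markers summed to 57143, 58687, and 38296 CPM in the saline males and to between 33688 and 42444 CPM in the morphine males, and 1 of the 6 passed, with a median log2 fold change of -0.34. The 4 markers of cerebellar granule cells summed to between 25.9 and 29.2 CPM in the saline males and between 36.3 and 77.1 CPM in the morphine males, and 3 of the 4 passed. The 4 choroid plexus markers summed to between 261 and 516 CPM against 411 and 830 CPM, and 3 of 4 passed. None of these markers was at 0 in all libraries. The 8 neuron markers had 0 genes that passed, with a median log2 fold change of -0.07. The part of these measures in the higher *Neat1*, *Miat*, and *Snhg11* of morphine males was not tested. In bulk RNA, more cells of a type that holds an RNA and more of that RNA per cell cannot be told apart.

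The change in males and the change in females were compared directly with an interaction term over the 12 mice, in which 559 of 19027 genes (2.94%) passed both thresholds. None of the 6 RNAs did, so a difference between the sexes was not shown for any of them. The male change exceeded the female change by 0.68 (SE 0.42, 95% CI -0.22 to 1.59) for *Snhg11*, 0.58 (SE 0.32, 95% CI -0.11 to 1.26) for *Miat*, 0.50 (SE 0.38) for *Malat1*, and 0.47 (SE 0.42) for *Neat1* on the log2 scale. The differences for *Pvt1* (0.15, SE 0.31) and *Gas5* (-0.01, SE 0.18) were within 1 SE of 0. The smallest adjusted *p* among the 6 was 0.985. Leaving out saline female 4, the mouse with the lowest *Neat1*, *Miat*, and *Snhg11*, brought these 3 past both thresholds, with differences of 0.74, 0.75, and 0.94, and an adjusted *p* of 0.797 from edgeR. Taking out the lowest saline female raises the mean of the saline females and lowers the female change. The direction of this move was thus set beforehand, and the fit is no further test of a difference between the sexes. The share of all tested genes that passed rose to 4.89% in the fit without saline female 4. Over the 12 fits that left out 1 mouse, *Miat* and *Snhg11* each passed in 3 and *Neat1* in 1. Without morphine male 6, *Neat1* (0.59), *Miat* (0.56), and *Snhg11* (0.75) did not pass, where 3.39% of all tested genes did. Without saline male 3, *Snhg11* (0.90) passed and *Neat1* (0.41) and *Miat* (0.41) did not, where 24.1% of all tested genes did. For *Snhg11* this mouse was the highest saline male, so the direction of that move was set beforehand as well.

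Genes that work with these RNAs were read as lists. Over all tested genes, 2.99% passed in males, 1.81% in females, and 2.94% in the interaction. The shares of all tested genes above 0 were 37.6%, 48.2%, and 45.6% in the same order. Of 14 paraspeckle proteins, the partners of *Neat1*, 1 passed in males and 0 in females, and the median log2 fold change was 0.02 in males and -0.07 in females. *Sfpq* (0.12, SE 0.20) and *Nono* (-0.01, SE 0.11), with which *Neat1* forms the core of paraspeckles, did not pass in males. Of 16 nuclear speckle proteins, the neighbours of *Malat1* in the nucleus, 1 passed in males and 0 in females. *Srrm2*, a large scaffold of speckles, had 530 ± 6.33 CPM in the 3 morphine males against 391 ± 26.9 CPM in the 3 saline males, with a log2 fold change of 0.41 (SE 0.11). It was 0.40 without saline male 3 and 0.41 without morphine male 6, and *Srrm2* passed in both fits. The median log2 fold change of the 16 was 0.17 in males, where 14 were above 0, and -0.12 in females, where 0 were; the medians of all genes were -0.06 and -0.01. Without saline female 4, 5 of the 16 passed in females, as did 7.95% of all tested genes. The ribosomal protein genes lay on the other side of 0 in females, where 76 of 78 were above 0 with a median of 0.21 and 3 passed, and in the interaction 0 of 78 were above 0 and 18 passed; their part in the speckle protein values was not tested. In the interaction, *Srrm1* passed with a difference of 0.41 (SE 0.18), and 15 of the 16 were above 0. *Srrm1* passed in only 3 of the 12 interaction fits that left out 1 mouse. It passed without saline male 3 (0.44) and did not without morphine male 6 (0.43, SE 0.20). None of the 3 splicing factors that bind *Miat* (*Sf1*, *Qk*, and *Celf3*) passed in any comparison, and neither did any of 10 NMD factors.

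Among the 13 tested snoRNA host genes other than *Gas5* and *Snhg11*, 1 passed in females and 1 in males, where 1.81% and 2.99% of all tested genes did. *Snhg17*, the nearest tested neighbour of *Snhg11* at a distance of 14058 bases and on the opposite strand, had 12.3 ± 0.883 CPM in the 3 morphine males against 9.05 ± 0.901 CPM in the 3 saline males, and its log2 fold change was 0.41 (SE 0.17). Of the 6 male fits that left out 1 mouse, *Snhg17* passed in 1, that without saline male 3 (0.52), its highest saline male. It did not pass without morphine male 6 (0.45, SE 0.21). *Snhg8* passed in females (0.69, SE 0.26) and in the interaction (-1.80, SE 0.66). Among the 6 female fits that left out 1 mouse, *Snhg8* passed in 4. It was at 8.18, 8.49, and 1.72 CPM in the saline males and between 2.33 and 3.64 CPM in the morphine males. Its interaction was -1.49 (SE 0.68) without saline male 2, which did not pass, and it passed in the 11 other fits that left out 1 mouse.

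Of 17 tested other lncRNAs known from brain, 4 passed in males, all higher in morphine, against 0 in females and 1 (*Sox1ot*, 0.31, SE 0.12) with the sexes combined. Over all tested genes 1.92% passed with higher levels in morphine males, and 1.81% passed in females. *Meg3*, an imprinted lncRNA, was at 4660, 4534, and 3947 CPM in the morphine males and at 2343, 2639, and 2973 CPM in the saline males. The groups did not overlap, and the log2 fold change of *Meg3* was 0.70 (SE 0.15). *Mirg*, from the same imprinted cluster, changed by 0.65 (SE 0.15), *Mir124a-1hg*, the host of a neuronal microRNA, by 0.57 (SE 0.14), and *Firre*, an X-linked nuclear lncRNA, by 0.35 (SE 0.12). *Rian*, which lies between *Meg3* and *Mirg*, had a log2 fold change of 0.19 (SE 0.21) and did not pass. The median of the 17 was 0.19 in males and -0.01 in females, beside -0.06 and -0.01 over all genes. Without morphine male 6, *Meg3* (0.76), *Mirg* (0.60), and *Mir124a-1hg* (0.58) passed and *Firre* (0.34, SE 0.16) did not, and without saline male 3 all 4 passed. With all males the adjusted *p* was 0.9999 for all 4 in edgeR.

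**Figure D5:**
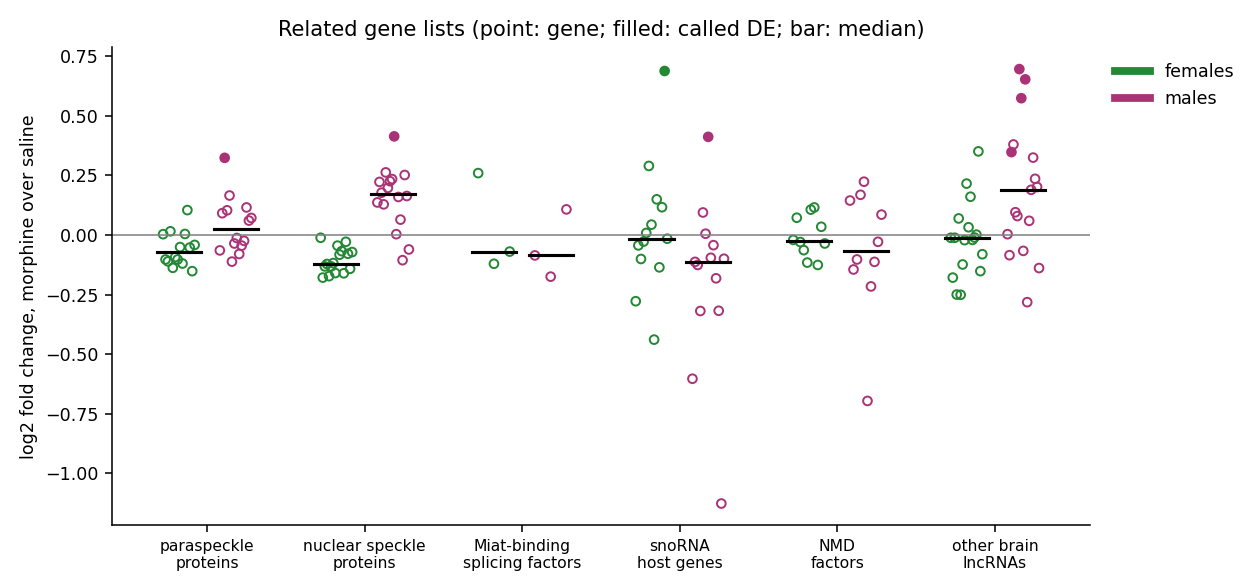
Log2 fold change of morphine over saline (vertical axis) of each gene in the lists of paraspeckle proteins, nuclear speckle proteins, splicing factors that bind *Miat*, snoRNA host genes, NMD factors, and other brain lncRNAs, in females (green) and males (purple); filled points passed both thresholds and bars are medians. The nuclear speckle proteins lie mostly above 0 in males (14 of 16) and below 0 in females (16 of 16), and the brain lncRNAs hold 4 of the filled male points. Over all tested genes, 37.6% lie above 0 in males and 48.2% in females.

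The nearest tested genes on either side of the RNAs were read in the same fits. *Frmd8*, 4224 bases from *Neat1*, was at 71.7, 74.3, and 28.0 CPM in the saline males and between 31.0 and 37.1 CPM in the morphine males, with a log2 fold change in males of -0.79 (SE 0.35) that did not pass. In the interaction *Frmd8* passed with -0.93 (SE 0.39), and saline males 1 and 2 were the 2 highest of the 12 mice. *C130026L21Rik* and *Crybb1*, 608296 and 26420 bases from *Miat*, passed in 0 comparisons, at means of only 1.45 and 0.736 CPM. *Ralgapb*, 23703 bases from *Snhg11*, *Rc3h1*, 59444 bases from *Gas5*, and *Fam49b*, 1551001 bases from *Pvt1*, also passed in 0. *Myc*, 47612 bases from *Pvt1*, averaged 4.02 CPM and had log2 fold changes of 0.22 (SE 0.18) in females and -0.24 (SE 0.28) in males, neither of which passed.

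The genes most like each RNA over the 12 mice were found among 15055 genes with a mean of at least 1 CPM, by the Pearson correlation of log2 CPM. *Snhg11* was most like *Ddx17* (r = 0.985), an RNA helicase, *Gm49759* (0.980), and *Fnbp4* (0.977), and *Miat* was most like *Pan2* (0.984), *Trank1* (0.964), and *Med12* (0.962). *Neat1* was nearest to *Firre* (0.940), *Rab10os* (0.937), and *Ubap1l* (0.925), and *Malat1* to *Kcnq1ot1* (0.909), another nuclear lncRNA, *Gm38299* (0.907), and *Gm44830* (0.896). *Gas5* was most like *Ddx3x* (0.927), *Jpx* (0.911), and *Zranb3* (0.909), and *Pvt1* like *Dlg2* (0.932), *Ids* (0.930), and *B3gnt5* (0.929). None of the 6 RNAs was among the 3 nearest genes of another; the closest was *Miat*, which ranked 50 among the genes most like *Neat1*.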

How the data were processed

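Brainstem RNA of 12 mice was sequenced as poly-A libraries with single-end reads on 1 lane. Per the submitters' processing notes, the authors used Trimmomatic, STAR, and featureCounts (Subread) with mm10; the versions are not given in the sources used here. The deposited values are the authors' raw counts over the exons of each gene, whole numbers without normalization. Groups came from the sample labels. All 55418 symbols were matched to GENCODE M21, of which 115 stand for more than 1 gene; the transcript sequences are from the same release.

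Tests were quasi-likelihood F tests (edgeR 4.0.16, R 4.3.3) over all genes kept by filterByExpr, with TMM factors and Benjamini-Hochberg adjustment; sex was a covariate in the sex-combined fit, and females and males were also fitted alone. The series description adds dam as a covariate, which no label gives. SE and 95% confidence intervals come from the same fits. They rest on the spread between mice, moderated toward the trend over all genes tested, and so depend on the filter. In females the SE of *Malat1* was 0.280 with the filter and 0.101 without it. CPM use the TMM factors of the sex-combined fit, and logs a prior count of 2. 

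The 6 RNAs and the lists were chosen with earlier results of these data known. Named genes are the 6 RNAs, at most 3 genes per list and fit with the smallest *p* among those that passed, the nearest tested neighbour on either side, *Myc*, and the 3 genes most correlated with each RNA. A few genes that the rule picks are not reported here. *Rian*, *Firre*, *Sfpq*, and *Nono* as list members were named after their values were seen. Other settings were exactTest, DESeq2 1.42.0, its size factors, total counts, other filters, loess offsets (span 0.5) for GC content and length, a threshold on *p* alone, no sex covariate, a replicate block, the contrast from the fit of 12 mice, and leaving out each mouse. The fits were tested on simulated data.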

Additional observations from a re-analysis of the deposited data

How the results depend on the processing

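In females, 0 of the 6 RNAs passed both thresholds under every setting run. *Malat1* in females without a filter had an unadjusted *p* of 0.0245 in the quasi-likelihood test (adjusted *p* 0.94). Its log2 fold change of -0.23 in that fit did not reach the threshold. With the sexes combined the count went from 0 to 1 without a filter on low counts and with the replicate block, and ran from 0 to 1 when 1 mouse was left out. In males it went from 3 to 1 with the contrast from the fit of 12 mice, to 4 with total counts, and ran from 1 (without morphine male 4) to 5 (without saline male 3). In the interaction it went from 0 to 2 without a filter and to 1 with offsets for GC content and length, and ran from 0 to 3 (without saline female 4). The number of all tested genes that passed moved as well. In males it was 543 of 18166 under the settings of the Results and 807 of 18166 with total counts. With the fit of 12 mice it was 790 of 19027. It was 253 of 18641 without morphine male 4 and 5341 of 18652 without saline male 3. In the interaction it was 559 of 19027 under the settings of the Results. It was 1665 of 37483 without a filter and 1081 of 19027 with the offsets. The cause of these changes was not tested. Replicate numbers are shared by saline and morphine mice, and no label says that they mark pairs. Deviations of the same number correlated between -0.356 and 0.18, and 1 of 6 numbers correlated best with itself. These few values, from groups of 3 mice, cannot show whether mice of the same number were related.

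Scaling by total counts took the male median over all genes from -0.06 to 0.06 (log2), and 91.3% instead of 64.3% of the DE genes were then higher in morphine males. The corresponding shares were 51.1% and 72.7% with the sexes combined and 54.7% and 81.2% in the interaction. *Neat1*, *Miat*, *Snhg11*, and *Malat1* kept a positive log2 fold change in males and in the interaction under all settings run. Signs turned only for estimates that did not pass. In males *Gas5* was at 0.103 with total counts, 0.012 with the offsets, and 0.004 with the fit of 12 mice, and in the interaction at 0.088 with total counts and 0.003 with at least 10 counts in every library. In females *Pvt1* was at 0.009 with total counts, 0.005 with at least 10 counts, 0.052 with the offsets, and 0.005 with the fit of 12 mice, and *Miat* at -0.051 with the offsets. Leaving out 1 mouse gave, with the sexes combined, -0.049 to 0.180 for *Malat1*, -0.033 to 0.051 for *Gas5*, and -0.010 to 0.183 for *Pvt1*. In females it gave -0.480 to 0.051 for *Malat1*, -0.269 to 0.293 for *Neat1*, -0.180 to 0.203 for *Miat*, -0.438 to 0.083 for *Snhg11*, -0.073 to 0.081 for *Gas5*, and -0.081 to 0.083 for *Pvt1*. In males it gave -0.091 to 0.135 for *Gas5* and -0.060 to 0.450 for *Pvt1*, and in the interaction -0.105 to 0.088 for *Gas5* and -0.036 to 0.415 for *Pvt1*. Depth did not limit the abundant RNAs, and *Pvt1* had between 254 and 407 counts per library.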

Other observations

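In the 12 groups of 6 mice formed by the 6 RNAs and the treatments, 0 held a mouse beyond Dixon's 95% critical value. Without saline male 3, the 4 brain lncRNAs that passed in males had log2 fold changes of 0.82 (*Meg3*), 0.67 (*Mir124a-1hg*), 0.60 (*Mirg*), and 0.40 (*Firre*), with an adjusted *p* in edgeR between 0.00958 and 0.0358. In the same fit *Snhg8* had a male log2 fold change of -1.53 (SE 0.22, adjusted *p* in edgeR 0.0108). Saline male 3 was the highest saline male for *Meg3* and the lowest for *Snhg8*, so the direction of both moves in that fit was set beforehand. The saline group of that fit was saline males 1 and 2 alone. Of all 18652 genes tested in it, 28.6% passed both thresholds and 2141 had an adjusted *p* under 0.05 in edgeR. Low adjusted *p* values were therefore not particular to the genes named here.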
